A study of Mus musculus with 24 samples.

Results

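Floor plate and ventral neural genes were followed through neural differentiation of wild-type (WT) and SmcHD1-mutant (KO) mouse embryonic stem cells (mESCs). The 8 genes, Foxa1, Foxa2, Nkx2-2, Nkx2-9, Nkx6-1, Nkx6-2, Spon1 and Ntn1, were taken by their symbols from 23119 genes listed, and all 8 were among the 12105 genes with a mean of at least 1 FPKM (a level of mapped fragments scaled to transcript length and library size) that entered the tests. They were chosen because Nkx2-9, Foxa2 and Spon1 were lower in KO cells, so KO against WT values of the 8 genes are given as a description with their standard errors and no test. Poly(A) RNA of 24 libraries was sequenced by the authors, 3 for each genotype as mESCs, at day 7 and day 9 of differentiation as early neurectoderm aggregates (embryoid bodies), and as neural stem cells (NSCs). WT cells were JB4/EI7HZ2, a female F1 hybrid mESC line from a JF1 mother and a B6 father, and KO cells were made from it with CRISPR–Cas9 and a single guide against Smchd1, the gene of a chromatin protein known for its part in X inactivation. Both genotypes carry a zeocin resistance cassette (CAGzeo) at Hprt on the JF1 X and a neomycin resistance cassette (IRESneo) at Eif2s3x on the B6 X, and mESCs and NSCs of both were kept in G418 and Zeocin. Each genotype is represented by 1 line, so an effect of the mutation and a difference between lines cannot be told apart. NSCs came from a protocol of their own, adherent culture followed by aggregates and outgrowth with FGF2 and epidermal growth factor, and not from the day 9 aggregates. The replicates are described as independent experiments on these lines, and p-values measure the spread between them.

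The floor plate is the strip of cells at the ventral midline of the neural tube. It secretes Sonic hedgehog (Shh), as does the notochord beneath it, and the dose of Shh sets which transcription factors ventral progenitors use. Foxa2 and Foxa1, forkhead factors, mark the floor plate itself and are also used in the node, the notochord and the endoderm. Nkx2-2 and Nkx2-9 are homeodomain factors of the progenitors next to the floor plate, and Nkx6-1 and Nkx6-2 are homeodomain factors of a broader ventral domain that includes motor neuron progenitors. Spon1 encodes F-spondin and Ntn1 encodes netrin 1, secreted proteins of the floor plate that guide axons.

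In the mm9 coordinates of the deposited table, Foxa2 lay at chr2:147868614-147872705 and Nkx2-2 at chr2:147003282-147157417, 711.2 kb apart. Foxa1 lay at chr12:58641619-58647108 and Nkx2-9 at chr12:57712384-57714271, 927.3 kb apart. Nkx6-1 lay at chr5:102088216-102093730, Ntn1 at chr11:68022866-68200328, Spon1 at chr7:120909512-121186889 and Nkx6-2 at chr7:146575008-146768696. The entry of Nkx2-2 spans the same locus as Nkx2-2as, a noncoding RNA of the opposite strand that reached at most 1.19 FPKM in any library, and the entry of Nkx6-2 spans the same locus as Inpp5a. Whether reads were counted by strand is not given in the sources used here, so reads at these overlaps cannot be told apart.

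RefSeq promoter windows (assembly GRCm38.p6, from 250 bases before to 50 bases after a transcript start) were held for 6 of the 8 genes, in 8 windows, since Foxa2 has 3 starts. The windows of Spon1 and Ntn1 were not analysed here. Shown are the window of Nkx2-9, the upstream-most start of Foxa2, and the windows of Foxa1 and Nkx2-2, to set Foxa1 beside Foxa2 and Nkx2-2 beside Nkx2-9. Each is on the minus strand and is printed 5′ to 3′ along the transcript, at chr12:56613235-56613534 for Nkx2-9, chr2:148046920-148047219 for Foxa2, chr12:57546062-57546361 for Foxa1 and chr2:147186353-147186652 for Nkx2-2. Capitals mark letters of a Gli motif (GACCACCCA), a Fox motif (TGTTTAC or TATTTAC), an Nkx2 motif (CACTTGA or CACTTAA) or a GC box (GGGCGG) on either strand, and a run of capitals longer than 1 motif holds overlapping GC boxes.
Nkx2-9: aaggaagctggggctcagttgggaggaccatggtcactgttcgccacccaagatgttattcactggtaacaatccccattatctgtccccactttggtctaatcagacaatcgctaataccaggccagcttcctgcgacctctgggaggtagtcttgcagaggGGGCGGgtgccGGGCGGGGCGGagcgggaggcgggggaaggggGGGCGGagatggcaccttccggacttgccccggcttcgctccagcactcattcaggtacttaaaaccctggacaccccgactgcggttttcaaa
Foxa2: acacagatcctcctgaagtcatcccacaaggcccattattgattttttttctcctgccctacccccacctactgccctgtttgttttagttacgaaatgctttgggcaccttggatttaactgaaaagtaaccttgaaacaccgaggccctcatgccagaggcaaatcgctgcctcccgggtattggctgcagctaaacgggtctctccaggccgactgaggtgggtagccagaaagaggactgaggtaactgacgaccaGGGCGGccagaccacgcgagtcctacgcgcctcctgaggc
Foxa1: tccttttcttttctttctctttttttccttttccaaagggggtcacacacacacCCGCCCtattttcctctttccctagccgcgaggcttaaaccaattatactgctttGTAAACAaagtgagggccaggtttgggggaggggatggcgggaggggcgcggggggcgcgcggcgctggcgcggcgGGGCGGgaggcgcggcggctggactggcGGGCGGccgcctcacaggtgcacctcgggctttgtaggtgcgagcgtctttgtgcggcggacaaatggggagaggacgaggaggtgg
Nkx2-2: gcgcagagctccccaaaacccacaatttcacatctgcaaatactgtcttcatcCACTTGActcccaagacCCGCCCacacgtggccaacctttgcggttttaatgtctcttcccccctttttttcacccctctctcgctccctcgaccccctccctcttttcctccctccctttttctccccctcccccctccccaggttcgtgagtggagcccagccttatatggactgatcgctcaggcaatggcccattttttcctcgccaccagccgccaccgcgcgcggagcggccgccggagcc
The Gli motif, the site of the transcription factors that act downstream of Shh, was in none of the 8 windows and in 0.253% of 32851 mouse windows of this length. The Fox motif was in the window of Foxa1 alone, from base -141 to base -135 with the start counted as 0, and in 6.54% of all windows. The Nkx2 motif was in the window of Nkx2-2 alone, from base -197 to base -191, and in 5.34% of all windows. GC boxes were in 7 of the 8 windows, from 5 of the 6 genes, and in 35.7% of all windows, and Nkx2-9 held 4 of them. These matches describe letters in short windows and say nothing of binding.

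The libraries matched their labels. Smchd1 was lower in KO cells at every stage, with 2.50 ± 0.602 against 13.5 ± 0.502 FPKM in mESCs (mean ± SD, n = 3) and 3.88 ± 0.473 against 18.0 ± 2.95 in NSCs, and its largest adjusted p over the 4 stages was 2.81e-09 (limma, Benjamini-Hochberg). Summed levels of 6 pluripotency genes fell from 2473 to 2979 FPKM in mESCs to at most 12.6 FPKM in NSCs, and those of 5 neural stem cell genes rose to between 4045 and 7027 FPKM in NSCs. Relative read numbers worked out from the values ran from 0.811 to 1.15 with the median library at 1, and the absolute number of reads was not used here. For Foxa1, Foxa2, Nkx2-9, Nkx6-1, Spon1 and Shh every value above 0 was a whole multiple, within 0.1, of 1 step, and the multiples are given below as reads. Day 7 and day 9 each held a library that stood apart over the 8 genes. Replicate 1 of the WT day 7 libraries was the lowest of its group for 8 of 8 genes, and replicate 2 of the KO day 9 libraries was the highest of its group for 8 of 8, so values without them are given beside the results. Replicate 1 of WT day 9 was the lowest for 7 of 8, and replicate 2 of KO NSCs was the highest for 7 of 8, the other being listed at 0 in that group.

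**Figure D1:**
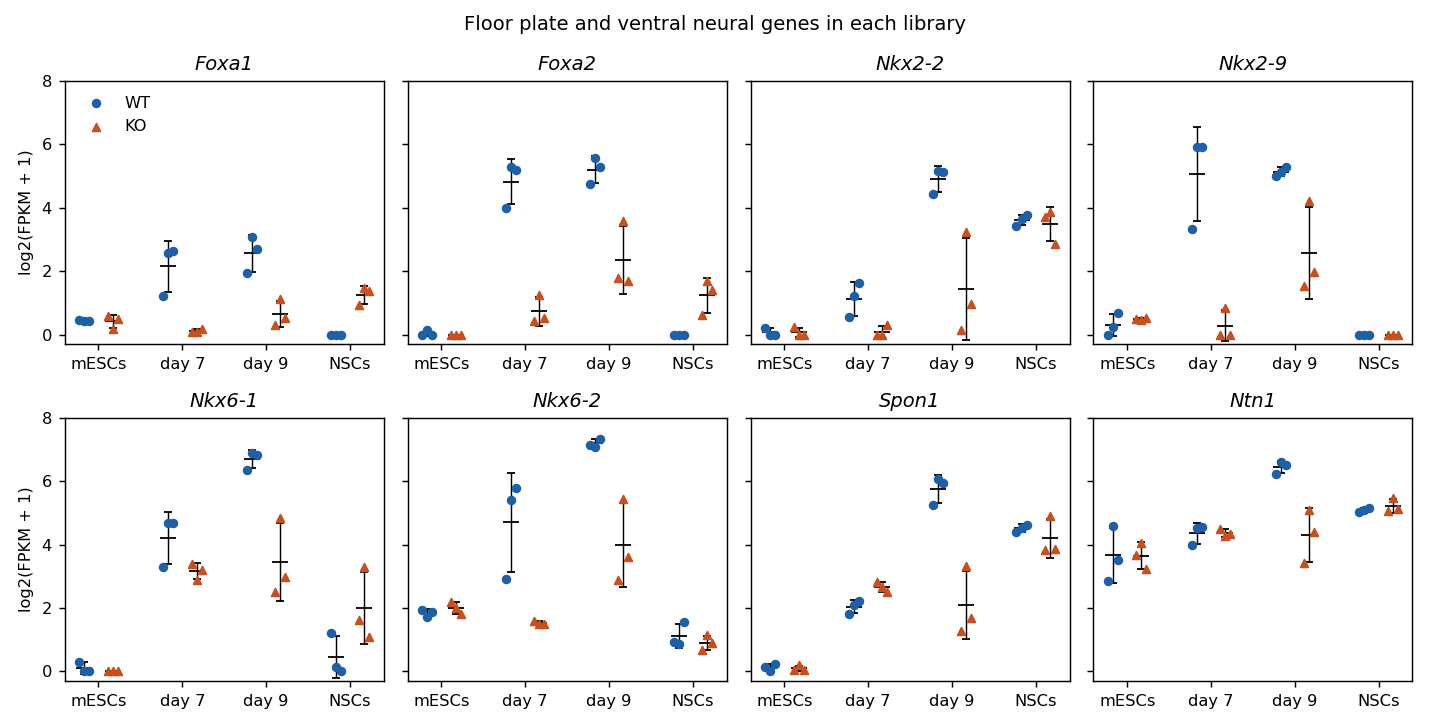
Levels of the 8 genes in all 24 libraries as log2(FPKM + 1), WT as circles and KO as triangles at each stage, with the mean and SD of 3 libraries as black bars. All 8 genes are higher in WT than in KO at day 9 with no overlap, and Foxa1 and Foxa2 are above 0 only in KO among NSCs.

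Foxa2 was at or near 0 in WT mESCs and NSCs and high in between. It was listed at 0 in 2 WT mESC libraries and at 0.106 FPKM in the other, a single read. At day 7 the WT libraries held 15.1, 37.8 and 35.9 FPKM (166, 359 and 323 reads) and the KO libraries 0.344, 1.40 and 0.431 FPKM (4, 13 and 4 reads). At day 9 the WT libraries held 25.7, 46.7 and 38.1 FPKM and the KO libraries 2.42, 11.04 and 2.22 FPKM. The genotypes did not overlap at either day, and the fitted KO minus WT differences on the log2(FPKM + 1) scale were -4.09 (SE 0.40) at day 7 and -2.85 (SE 0.40) at day 9. In NSCs all 3 WT libraries were listed at 0, while the KO libraries held 0.543, 2.24 and 1.67 FPKM, or 5, 23 and 18 reads.

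Foxa1, its paralog, also had its highest means in WT cells at day 7 and day 9. WT mESCs held 0.386, 0.343 and 0.355 FPKM and KO mESCs 0.507, 0.138 and 0.395 FPKM, at most 7 reads in a library. At day 7 WT libraries held 1.35, 5.02 and 5.23 FPKM and KO libraries 0.0555, 0.0696 and 0.139 FPKM, the latter from 1, 1 and 2 reads. At day 9 WT libraries held 2.81, 7.52 and 5.44 FPKM and KO libraries 0.241, 1.18 and 0.456 FPKM. The KO minus WT difference was -2.03 (SE 0.30) at day 7 and -1.91 (SE 0.30) at day 9, with no overlap of the genotypes at either. With a pseudocount of 0.1 in place of 1 these were -4.21 and -2.997. In NSCs the order turned. The 3 WT libraries were listed at 0, and the KO libraries held 0.911, 1.76 and 1.62 FPKM (13, 28 and 27 reads). Foxa1 and Foxa2 were the only 2 of the 8 whose WT and KO NSC libraries did not overlap. Their NSC differences of 1.26 (SE 0.30) for Foxa1 and 1.25 (SE 0.40) for Foxa2 rest on the pseudocount of 1, and with a pseudocount of 0.1 they were 3.89 and 3.79.

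Both forkhead genes are also used outside the neural tube, so markers of those cells were set beside them. Of 8 node and notochord markers 7 were in the table, Shh among them, which the floor plate also makes. Their summed level in WT day 7 libraries was 86.2 to 198.8 FPKM against 5.75 to 7.59 FPKM in KO. T (Brachyury), a defining notochord gene, stood at 52.1, 131.7 and 123.9 FPKM in WT and at 0.719, 2.03 and 2.03 FPKM in KO, and 5 of 6 tested markers were lower in KO at day 7. For this and the marker counts that follow, 2.50% of all genes were called lower in KO and 1.18% higher at day 7. At day 9 these shares were 4.11% and 2.58%. Of the 12 endoderm markers 4 were tested and 3 of these were lower in KO at day 7. Their sum without Apoe, a gene that mESCs also express, was 48.9 to 121.1 FPKM in WT and 1.95 to 4.42 FPKM in KO, and leaving Apoe out was decided after its values were seen. Cer1 was the highest of them at 40.9, 101.2 and 66.2 FPKM in WT day 7 libraries, while Afp was listed at 0 in all 3. The WT day 7 library with the lowest levels of the 8 genes, replicate 1, also held the least T, Sox17 and Cer1, but not the least Foxj1, Dand5, Apoa1 or Apoe. Their part in the day 7 result was not tested, and in bulk RNA fewer cells of a type and less RNA per cell cannot be told apart. By day 9 the node and notochord sum was 45.0 to 86.7 FPKM in WT against 14.1 to 33.8 FPKM in KO. Of this sum Shh alone made up 21.5 to 43.0 FPKM in WT and 1.60 to 10.3 FPKM in KO, with Noto listed at 0 in all 3 WT libraries and 2 of 6 tested markers lower in KO. The endoderm sum without Apoe was 4.23 to 13.4 FPKM in WT day 9 libraries and 2.94 to 5.28 FPKM in KO, and none of the 4 tested markers was called. In KO NSCs, where Foxa1 and Foxa2 were above 0, 8 of the 12 endoderm markers were listed at 0 in all libraries, among them Sox17, Foxa3 and Ttr. Gata4 stood at 1.05, 1.76 and 0.449 FPKM in KO NSCs and at 0 in all 3 WT NSC libraries. The endoderm sum without Apoe was 1.59 to 2.60 FPKM in KO NSCs against 0.403 to 1.09 FPKM in WT, with no overlap. The summed level of 5 neurectoderm markers was 303.1 to 308 FPKM in KO against 234.9 to 270.5 FPKM in WT at day 7, where 1 of 5 was called higher. Sox2, which mESCs also express, made up 147.8 to 163 FPKM of it in KO and 131.1 to 148.2 FPKM in WT. In mESCs the sum was 318.8 to 325.1 FPKM in WT and 327.5 to 331.9 FPKM in KO, above both day 7 groups. The sum therefore does not follow neurectoderm alone. At day 9 it was 425.6 to 459 FPKM in KO against 349.8 to 440.1 FPKM in WT, and 2 markers were called higher. Of 5 neural stem cell markers none was called higher and 2 were called lower in KO at both days, among them Olig2, which is also listed below as a ventral factor. At day 9 Slc1a3 was at 6.14, 12.2 and 8.59 FPKM in KO against 24.4, 28.1 and 26.4 FPKM in WT. Fabp7 lay the other way at day 9, at 610.1, 468 and 535.5 FPKM in KO against 397.2, 373.4 and 318.9 FPKM in WT. The sum of the 5 was 172.6 to 270 FPKM in KO against 270.6 to 342.7 FPKM in WT at day 7. At day 9 it was 1489 to 1710 FPKM in KO against 1268 to 1551 FPKM in WT. Nes, which is in both lists, was at 24.5, 33.7 and 31.2 FPKM in KO against 38.0, 48.6 and 43.5 FPKM in WT at day 7. The part of these markers in the results was not tested.

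Nkx2-9 was high early in WT cells and at most 0.789 FPKM in KO cells at day 7. WT day 7 libraries held 9.15, 59.8 and 59.9 FPKM (55, 311 and 295 reads), while KO libraries were listed at 0, 0.789 and 0 FPKM, 4 reads in all. The difference of -4.79 (SE 0.58) was the most negative of the 8 genes at that day, and with a pseudocount of 0.1 it was -7.28. At day 9 WT libraries held 30.9, 34.3 and 37.8 FPKM and KO libraries 1.87, 17.7 and 2.95 FPKM, a difference of -2.56 (SE 0.58). Nkx2-9 was listed at 0 in all 6 NSC libraries and at no more than 3 reads in any mESC library.

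Nkx2-2, its family member, was low at day 7 and present in all 6 NSC libraries. WT libraries held 0.475, 1.32 and 2.08 FPKM at day 7 and 20.9, 34.6 and 34.1 FPKM at day 9. KO libraries held 0, 0 and 0.225 FPKM at day 7 and 0.0972, 8.41 and 0.947 FPKM at day 9, below every WT library at both days, and the differences were -1.04 (SE 0.49) at day 7 and -3.47 (SE 0.49) at day 9. With a pseudocount of 0.1 the former was -3.03. In NSCs the genotypes overlapped, with 9.82, 11.5 and 12.6 FPKM in WT and 12.1, 13.7 and 6.28 FPKM in KO. The difference there was -0.13 (SE 0.49).

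Nkx6-1 was already present in KO cells at day 7. The KO libraries held 9.57, 6.39 and 8.20 FPKM (92, 49 and 63 reads) and the WT libraries 8.70, 24.4 and 24.8 FPKM, so that the lowest WT library fell among the KO libraries. The day 7 difference was -1.05 (SE 0.55). At day 9 the WT level had climbed to 81.3, 116.6 and 112.5 FPKM and the KO level was 4.73, 27.6 and 6.83 FPKM, with a difference of -3.25 (SE 0.55). In NSCs it was low in WT (1.31, 0.112 and 0 FPKM) and 2.101, 8.70 and 1.12 FPKM in KO, which overlapped. The NSC difference was 1.54 (SE 0.55), and 3.21 with a pseudocount of 0.1.

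Nkx6-2 reached the highest level of the 8 genes. WT day 9 libraries held 139.9, 134.6 and 161.3 FPKM and KO libraries 6.35, 42.8 and 11.1 FPKM, a difference of -3.21 (SE 0.58). At day 7 the WT libraries held 6.51, 41.6 and 54.4 FPKM, while the KO libraries, at 2.04, 1.83 and 1.83 FPKM, were still below the 2.28 to 3.52 FPKM of mESCs. The day 7 difference was -3.17 (SE 0.58). NSCs of both genotypes held 0.613 to 1.97 FPKM. Inpp5a, which shares the locus, stayed between 8.44 and 19.4 FPKM over all 24 libraries.

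The genes of the secreted proteins, Spon1 and Ntn1, did not lie below WT in KO cells at day 7. Spon1 was higher in KO than in WT at that day, with 6.09, 5.33 and 4.66 FPKM (219, 153 and 134 reads) against 2.50, 3.30 and 3.62 FPKM (85, 97 and 101 reads), no overlap and a difference of 0.62 (SE 0.36). At day 9 the order was the opposite, with 1.41, 8.92 and 2.22 FPKM in KO against 36.9, 66.7 and 60.01 FPKM in WT and a difference of -3.66 (SE 0.36). In NSCs Spon1 was at 19.9, 22.1 and 23.8 FPKM in WT and 13.2, 29.1 and 13.5 FPKM in KO, which overlapped.

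Ntn1 had the highest mESC level of the 8, 6.28, 23.0 and 10.5 FPKM in WT and 11.6, 15.7 and 8.30 FPKM in KO. At day 7 the genotypes overlapped (14.7, 22.2 and 22.4 FPKM in WT, 21.5, 18.4 and 19.0 FPKM in KO, difference 0.01, SE 0.37). At day 9 they did not, with 74.5, 96.5 and 90.5 FPKM in WT, 9.66, 33.2 and 20.1 FPKM in KO and a difference of -2.15 (SE 0.37). NSCs held 31.8 to 34.7 FPKM in WT and 32.6 to 43.1 FPKM in KO.

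**Figure D2:**
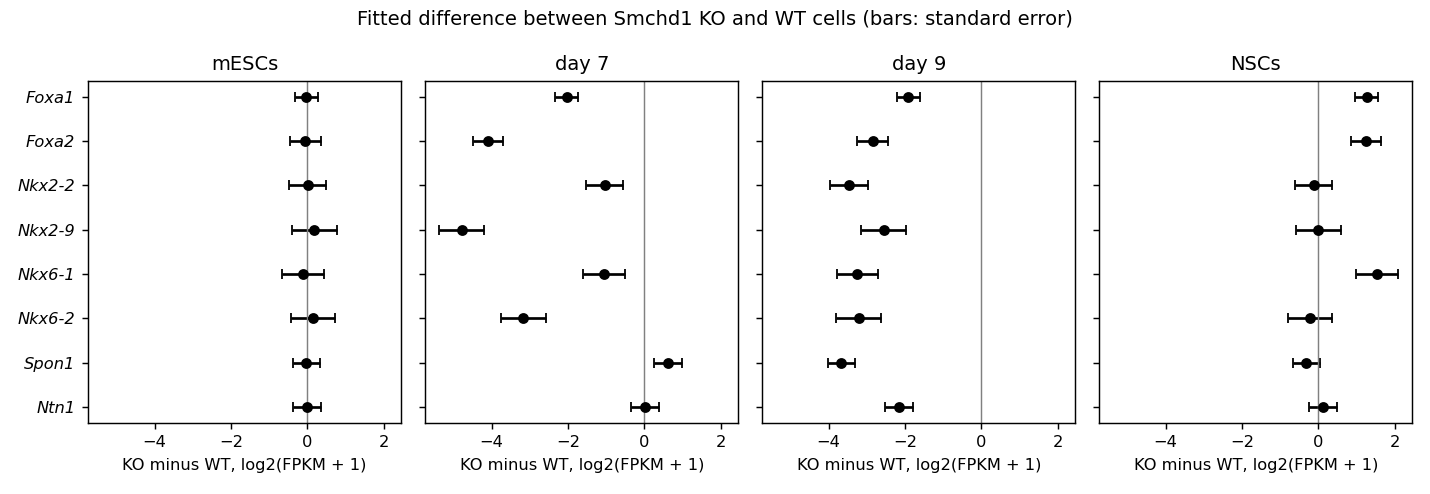
Fitted KO minus WT difference on the log2(FPKM + 1) scale for each gene at each stage, with bars of 1 standard error from the fit over all 24 libraries. Differences lie near 0 in mESCs, reach -4.79 for Nkx2-9 at day 7, run from -3.66 to -1.91 at day 9 and are above 1 for Foxa1, Foxa2 and Nkx6-1 in NSCs.

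Counted together, all 8 genes overlapped between genotypes in mESCs, 5 were lower and 1 was higher in KO without overlap at day 7, all 8 were lower at day 9, and 2 were higher in NSCs. Of all genes tested, 0.529% of the mESC comparison passed an adjusted p of 0.05. The shares were 3.68% on day 7 and 6.68% on day 9, while the NSC comparison gave 6.02%. Lower in KO without overlap were 12.3% of genes at day 7 and 16.8% at day 9, and higher without overlap were 11.6% at day 7 and 8.16% in NSCs. The genes were chosen on these contrasts, so nothing is read from the counts. The median difference of the 8 was -1.54 at day 7 and -3.03 at day 9, against -0.02 in mESCs and 0.06 in NSCs, and the median of all tested genes lay between -0.0005 and 0.0073. A block on the replicate number within each stage, fitted over all 24 libraries, called 98 genes of the table in place of 64 in mESCs and 1145 in place of 729 in NSCs. Scaled to the same sum of FPKM, 22.7% of the calls at day 9 were higher in KO in place of 38.6%, and 54.4% in place of 42.2% in NSCs.

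The libraries that stood apart were picked on these values, and leaving out the lowest WT or the highest KO library makes KO minus WT more negative by construction, so the values without them are given for their size alone. Without replicate 1 of WT, the day 7 median of the 8 genes was -2.01, and Nkx2-9 and Nkx6-2 differed by -5.65 (SE 0.47) and -4.07 (SE 0.44). With all libraries these were -4.79 and -3.17. Without replicate 2 of KO, the day 9 median was -3.71 and the values ran from -4.37 for Nkx2-2 to -2.14 for Foxa1. The same replicate held the most Shh of its group, with 1.60, 10.3 and 1.97 FPKM in replicates 1 to 3 of KO day 9. Shh in WT day 7 libraries was 4.27, 21.0 and 24.2 FPKM, lowest in the replicate that was lowest for all 8 genes. Without replicate 2 of KO in NSCs, Foxa1 differed by 1.16 (SE 0.34), Foxa2 by 1.02 (SE 0.45) and Nkx6-1 by 0.91 (SE 0.51).

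**Figure D3:**
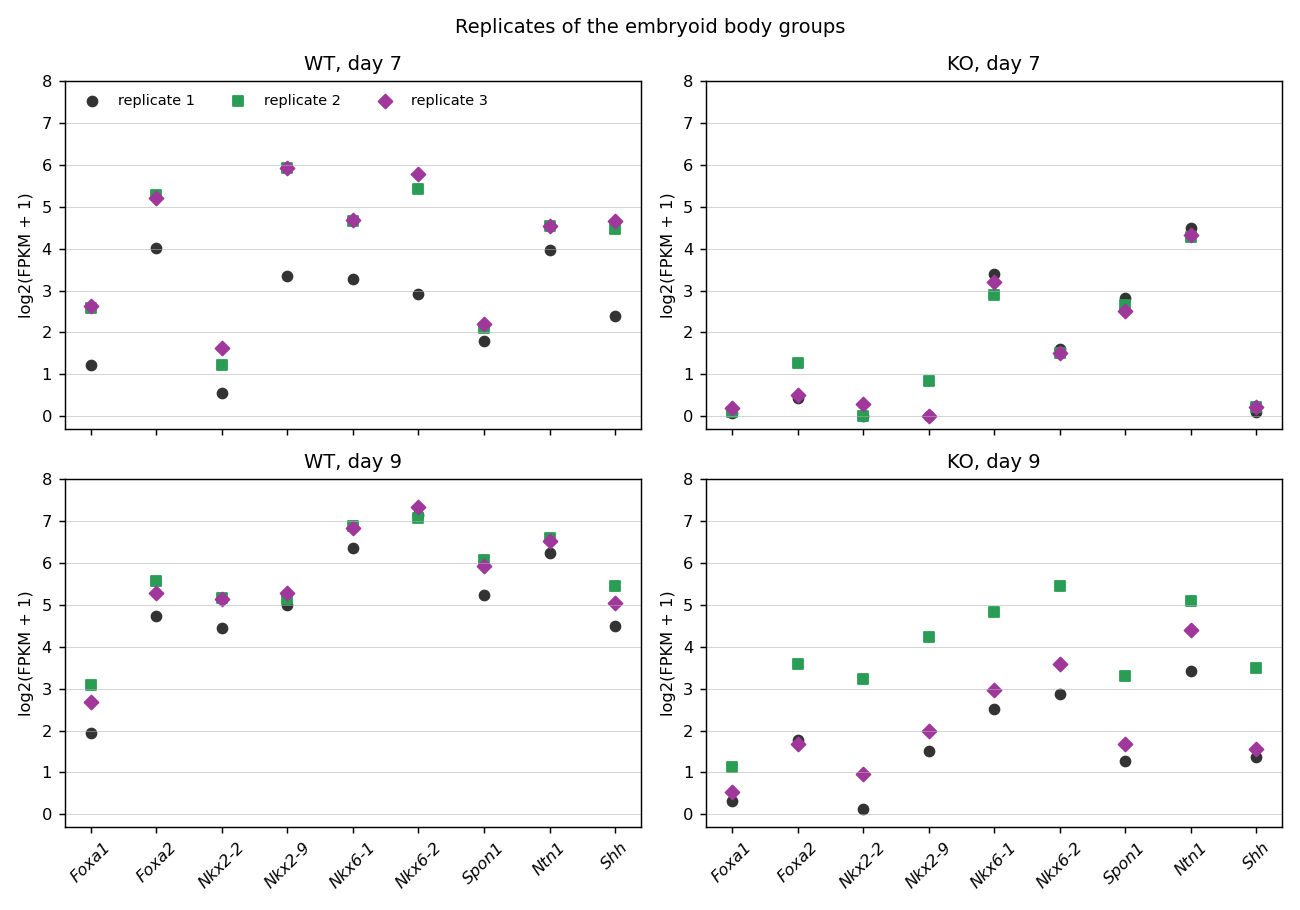
Levels of the 8 genes and Shh in each replicate of the 4 embryoid body groups, as log2(FPKM + 1). Replicate 1 is the lowest for all 9 genes in WT at day 7, and replicate 2 is the highest for all 9 in KO at day 9.

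Next, each genotype was compared between its own stages. The choice of the genes used KO against WT values of the same libraries, in which WT was high at day 7 and day 9, and Foxa1, Foxa2 and Nkx2-9 reached the filter on low values mainly through those WT libraries. The tests are not independent of the choice, and nothing is read from the counts of the 8 genes. In WT cells 6 of the 8 genes rose from mESCs to day 7, against 59.2% of all genes called in either direction, and 29.1% called higher. The 6 included Foxa2, by 4.78 (SE 0.40), Nkx2-9, by 4.75 (SE 0.58), and Nkx6-1, by 4.11 (SE 0.55, adjusted p = 3.05e-06). Nkx2-2, at 1.06 (adjusted p = 0.0686), and Ntn1, at 0.69 (adjusted p = 0.112), did not pass. Nkx2-2 passed without WT day 7 replicate 1 (adjusted p = 0.0416) or with a pseudocount of 0.1 (adjusted p = 0.0053) and Ntn1 without WT mESC replicate 2 (adjusted p = 0.00689). By day 9 all 8 had risen against mESCs (71.5% of all genes called, 36.4% higher), by between 2.12 for Foxa1 and 6.59 for Nkx6-1. Foxa1, Foxa2 and Nkx2-9 overlapped between WT day 7 and day 9, while every WT day 9 library was above every WT day 7 library for Nkx2-2, Nkx6-1, Nkx6-2, Spon1 and Ntn1. In WT NSCs all 8 were lower than at day 9 (55.1% called, 30.3% lower). The fall was by 6.23 for Nkx6-1, 6.07 for Nkx6-2, 5.20 for Foxa2, 5.14 for Nkx2-9 and 2.57 for Foxa1, and by 1.36 for Ntn1, 1.30 for Nkx2-2 and 1.24 for Spon1. The call of Nkx2-2 was lost with a pseudocount of 0.1 (adjusted p = 0.205) and without WT day 9 replicate 2 or 3 or WT NSC replicate 1 or 2 (adjusted p from 0.06 to 0.0854).

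In KO cells 2 of the 8 rose from mESCs to day 7, against 61.3% of genes called and 29.5% called higher. They were Nkx6-1, by 3.16 (SE 0.55, adjusted p = 5.71e-05), and Spon1, by 2.56 (SE 0.36, adjusted p = 2.64e-06). Foxa2, at 0.74, was called with a pseudocount of 0.1 (2.82, adjusted p = 0.000211), and Ntn1, at 0.72, when scaled to the same sum of FPKM (adjusted p = 0.0489). The Foxa2 values behind this were 4, 13 and 4 reads at KO day 7, with every KO mESC library listed at 0. Against mESCs 6 had risen by day 9 (71.3% called, 35.7% higher), Foxa2 by 2.35, Nkx2-2 by 1.36, Nkx2-9 by 2.07, Nkx6-1 by 3.44, Nkx6-2 by 1.98 and Spon1 by 1.99, with adjusted p from 1.56e-05 to 0.0174. Foxa1, at 0.24 (adjusted p = 0.491), and Ntn1, at 0.66 (adjusted p = 0.115), did not pass, though Ntn1 passed without KO day 9 replicate 1 (adjusted p = 0.00752) and scaled to the same sum of FPKM (adjusted p = 0.0418). Without replicate 2 of KO day 9, the rise of Nkx2-2 was 0.46 and no longer called (adjusted p = 0.189), while Foxa2, Nkx2-9, Nkx6-1, Nkx6-2 and Spon1 stayed called with adjusted p from 6.35e-05 to 0.0404. Fitted on the KO mESC and KO day 9 libraries alone, 3 of the 8 were called, against 8906 of all 12105 genes.

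Between KO day 9 and KO NSCs the 8 genes went in different directions (59.6% of genes called, 27.2% higher and 32.4% lower). Nkx2-2, Spon1 and Ntn1 were higher in KO NSCs than at KO day 9, by 2.04 (adjusted p = 0.00122), 2.11 (adjusted p = 3.2e-05) and 0.91 (adjusted p = 0.0386), where WT NSCs were lower than WT day 9 for each of the 3, and the difference between genotypes was not tested. Foxa2, Nkx2-9, Nkx6-1 and Nkx6-2 were lower, by 1.10, 2.58, 1.44 and 3.07 in size, and Foxa1, at 0.60 (adjusted p = 0.0914), did not pass. Without replicate 2 of KO day 9, Foxa2 (adjusted p = 0.233) and Nkx6-1 (adjusted p = 0.209) lost their calls, as Nkx6-1 also did without KO NSC replicate 1 or 3, and Foxa1 was called as higher, by 0.84 (adjusted p = 0.0361). Foxa1 was also called with a pseudocount of 0.1 (adjusted p = 0.044) and scaled to the same sum (adjusted p = 0.0348), settings that ended the call of Nkx6-1 (adjusted p = 0.0765 and 0.0575). Ntn1 lost its call without KO day 9 replicate 1 or 3 or any 1 of the KO NSC libraries (adjusted p from 0.0542 to 0.257), and Foxa2 also without KO NSC replicate 1 (adjusted p = 0.127). Fitted on the KO day 9 and KO NSC libraries alone, Nkx2-2 lost its call (adjusted p = 0.119). So did Foxa2 (adjusted p = 0.146), Nkx6-1 (adjusted p = 0.238) and Ntn1 (adjusted p = 0.137), while Foxa1 was called higher (adjusted p = 0.0407). Scaling every library to the same sum of FPKM moved the median difference of all genes by more than 0.1 in every stage comparison but WT NSCs against day 9, most in WT day 9 against mESCs, where it was 0.34 in place of 0.01, and turned the direction of none of the stage differences of the 8 genes. Against mESCs, higher calls were then 66.3% of all calls in place of 49.1% in WT day 7, 69.1% in place of 50.9% in WT day 9, 63.3% in place of 48.1% in KO day 7 and 64.0% in place of 50.1% in KO day 9. In KO NSCs against day 9 they were 61.6% in place of 45.6%.

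The levels of the 8 genes were also compared across the 24 libraries, the same ones on which the genes were chosen. Pearson correlations of log2(FPKM + 1) were 0.959 for Foxa2 with Nkx2-9, 0.947 for Nkx2-9 with Nkx6-2 and 0.909 for Foxa1 with Foxa2. They were 0.916 for Spon1 with Nkx2-2 and 0.907 for Spon1 with Ntn1, but 0.298 for Spon1 with Nkx2-9 and 0.341 between Nkx2-2 and Nkx2-9. Nkx2-2, Spon1 and Ntn1 kept at least 6.28 FPKM in all 6 NSC libraries. Among the other tested genes, Foxa2 was most like Shh (0.966) and Frem1 (0.961). Nkx2-9 was most like Shh (0.982), Spink3 (0.971) and Gli1 (0.966), a transcription factor and target of the hedgehog pathway. Spon1 was most like Tmem132e (0.95), E130309F12Rik (0.930) and Ttll1 (0.905). These values describe 24 libraries of 2 lines in 8 groups that share genotype and stage, and carry no test.

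Genes with related roles, taken from lists drawn up by known role, were tested between KO and WT. Earlier results of these data were known when the lists were drawn up, so their tests and counts are not independent of that choice. Of 11 other floor plate genes 8 were tested. At day 7, 4 were lower in KO (2.50% of all genes called lower and 1.18% higher), among them Shh by 3.66 in size (adjusted p = 4.74e-05), Lmx1a (-1.92, adjusted p = 0.000265) and Slit3 (-1.75, adjusted p = 5.44e-05). At day 9, 6 were lower (4.11% of all genes lower and 2.58% higher), led by Shh (-2.85, adjusted p = 0.000423), Slit3 (-2.23, adjusted p = 1.32e-06), whose product repels axons, and Sulf1 (-2.02, adjusted p = 1.18e-06), which edits heparan sulfate. None was higher at either day, and the median of the 8 tested was -0.96 at day 7 and -1.51 at day 9. Shh was at 21.5, 43.0 and 31.9 FPKM in WT day 9 libraries, at 0.0672, 0.169 and 0.168 FPKM in KO day 7 libraries, and at most 0.0861 FPKM, a single read, in any mESC or NSC library. Its day 9 call was lost when only those 2 groups were fitted (adjusted p = 0.0767), as was that of Lmx1a at day 7 (adjusted p = 0.0534). The call of Slit2 at day 9 (-1.01, adjusted p = 0.0061) was lost without WT replicate 2 (adjusted p = 0.0579) and with a pseudocount of 0.1 (adjusted p = 0.052). In mESCs none of the 8 was called, and in NSCs Sulf2 was higher in KO (0.75, adjusted p = 0.00691), but not when the NSC libraries alone were fitted (adjusted p = 0.248).

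Of 14 genes of the Shh pathway 12 were tested. In KO 4 were lower and 1 higher at day 7, and 4 lower and 4 higher at day 9, with a median of 0.26 at both days. Of all genes 2.50% were called lower and 1.18% higher at day 7, and 4.11% lower and 2.58% higher at day 9. At day 7, Shh, Gli1 (-3.002, adjusted p = 1.15e-06), and Ptch1 (-2.003, adjusted p = 1.56e-05), the receptor, were lower in KO, and Scube2, which helps release the ligand, was higher (1.44, adjusted p = 0.00263), a call lost with a pseudocount of 0.1 (adjusted p = 0.0868). At day 9 Shh, Gli1 and Ptch1 were again lower. Gas1 (2.19, adjusted p = 8.93e-08), Boc (1.92, adjusted p = 1.47e-06) and Cdon (1.52, adjusted p = 0.000631), co-receptors known to fall where the pathway is active, and Gli3 (1.66, adjusted p = 8.2e-05), its main repressor, were higher. Gas1 libraries held 17.3, 8.32 and 12.6 FPKM in WT and 62.8, 50.7 and 65.2 FPKM in KO at day 9. None of the 12 was called in mESCs or NSCs.

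Of 24 other ventral progenitor and neuron factors 12 were tested. Mnx1, a motor neuron factor (-2.05, adjusted p = 0.000572), and Olig2 (-1.39, adjusted p = 0.0106) were lower in KO at day 7, and En1 was higher (3.26, adjusted p = 1.36e-05). Olig2 lost its call without WT replicate 3 or KO replicate 1 (adjusted p up to 0.0886). At day 9, 8 were lower and none higher (4.11% of all genes called lower and 2.58% higher). The 8 were led by Isl1 (-3.84, adjusted p = 9.05e-10), Tbx20 (-2.88, adjusted p = 1.03e-08) and Phox2a (-1.58, adjusted p = 7.76e-05), factors of motor neurons. Isl1 was at 21.8, 34.6 and 31.5 FPKM in WT and 0.309, 2.57 and 0.920 FPKM in KO. The neuronal gene Tubb3 was at 344.6 to 375.3 FPKM in WT and 180.2 to 272.1 FPKM in KO day 9 libraries. Stmn2, also used by neurons, was at 107.9 to 116.9 FPKM and 62.8 to 66.8 FPKM, but mESCs of both genotypes held 110.2 to 155.6 FPKM of it. At day 7 the summed level of the neuronal markers, Tubb3 and Stmn2 among them, was 146.3 to 173.2 FPKM in KO and 107.8 to 146.7 FPKM in WT. Neither of the 2 tested neuronal markers was called at day 7. The part of neuronal genes in this list was not tested. At day 9 Olig2 lost its call without WT replicate 2 or 3 or KO replicate 1, and Prdm8 without WT replicate 1 or 2 or KO replicate 1 (adjusted p up to 0.103). Olig2 also lost it when only the 2 groups were fitted (adjusted p = 0.0592) and Prdm8 with a pseudocount of 0.1 (adjusted p = 0.3). In NSCs Prdm8 was higher (0.76, adjusted p = 0.0159), a call lost without WT replicate 3 or KO replicate 1 or 2 (adjusted p up to 0.086), when 0.1 was added in place of 1 (adjusted p = 0.0628) and in the fit of NSC libraries only (adjusted p = 0.197).

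Of 20 dorsal and intermediate progenitor factors 13 were tested. Wnt1 (3.00, adjusted p = 8.59e-06), a signal of the dorsal midline and of the midbrain, and Msx3 (1.28, adjusted p = 0.00129), a dorsal homeodomain factor, were higher in KO at day 7. By day 9, 11 of 13 were higher and none lower (2.58% of all genes called higher and 4.11% lower), with a median of 2.69. Msx3 (4.25, adjusted p = 1.54e-10), Gsx1 (4.20, adjusted p = 4.86e-08) and Zic1 (3.53, adjusted p = 3.94e-09) led them. Gsx1 was at 3.49, 0.112 and 0.341 FPKM in WT and 33.6, 25.5 and 44.7 FPKM in KO. KO replicate 2, the highest of its group for all 8 ventral genes, was the lowest for each of the 11 called genes other than Irx3 and Irx5, which were lowest in KO replicate 1. Pax7 lost its call at day 9 when only the 2 groups were fitted (adjusted p = 0.0579). Olig3 lost its call at day 9 without WT replicate 2 or 3 or KO replicate 1 or 3 (adjusted p up to 0.181). In NSCs Zic1 was higher (2.23, adjusted p = 7.16e-06). Without KO day 9 replicate 2 the counts of these 4 lists at day 9 were 0 higher and 6 lower, 4 and 4, 0 and 8, and 11 and 0, the same numbers as with it. Without WT day 7 replicate 1 they were 0 and 4, 2 and 4, 1 and 3, and 3 and 0 at day 7.

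**Figure D4:**
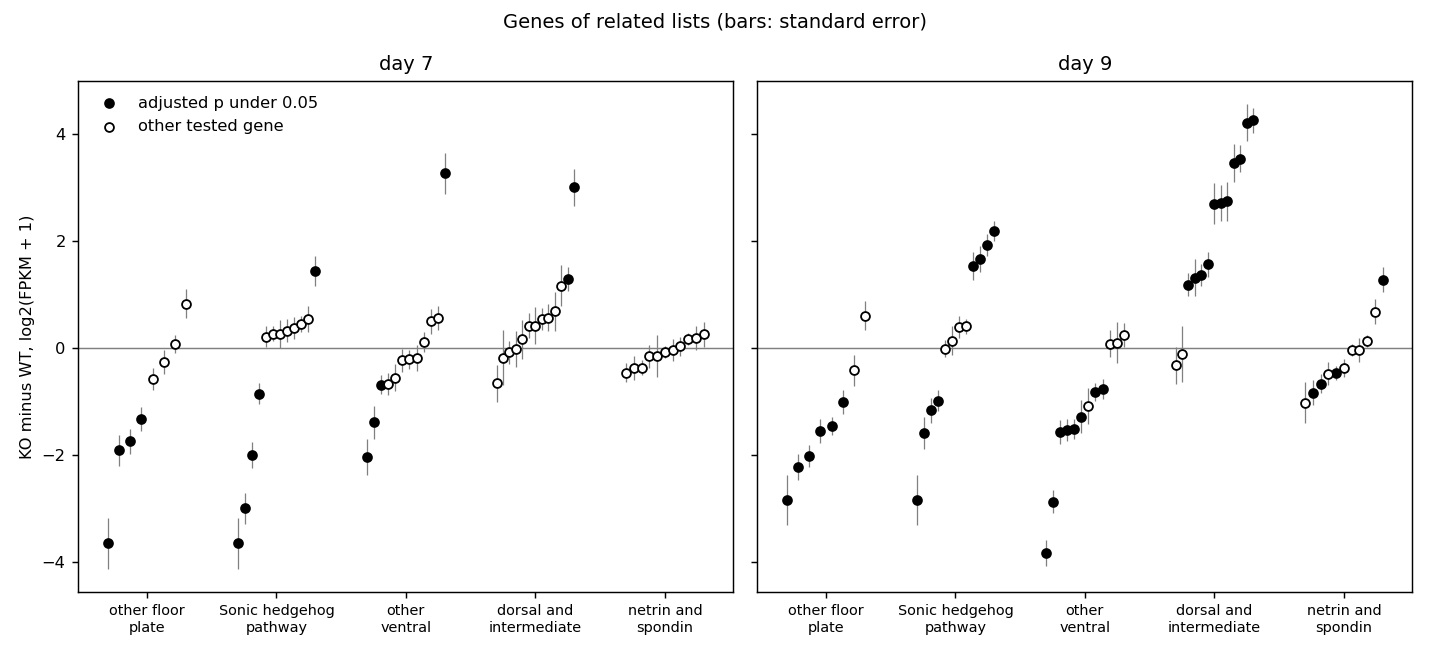
KO minus WT difference on the log2(FPKM + 1) scale of each tested gene of 5 related lists at day 7 and day 9, with standard errors; filled points passed an adjusted p of 0.05. At day 9 the called floor plate and other ventral genes lie below 0 and the 11 called dorsal and intermediate genes above it.

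For netrin and F-spondin, 11 of 18 receptors, binding proteins and relatives were tested. None was called in mESCs or at day 7. At day 9 Dcc, the receptor through which netrin 1 attracts axons, was higher in KO (1.27, adjusted p = 0.000872; 8.76, 9.76 and 12.5 FPKM against 6.65, 3.08 and 2.22 FPKM). App (-0.84, adjusted p = 0.03), Ntng2 (-0.67, adjusted p = 0.0199) and Lrp8 (-0.47, adjusted p = 0.0408) were lower. Without KO replicate 2 none of the 11 was called lower, and without WT replicate 2 or 3 none of these 3 calls held. App was also lost without KO replicate 1, Ntng2 without KO replicate 3 and in the fit on the 2 groups (adjusted p = 0.062), and Lrp8 without any 1 of the 6 libraries. A pseudocount of 0.1 ended all 3 calls, with adjusted p = 0.073 for App, 0.178 for Ntng2 and 0.0751 for Lrp8. In NSCs Dcc was lower in KO (-0.82, adjusted p = 0.036), a call that the replicate block did not keep (adjusted p = 0.0621), nor did the fits without WT replicate 2 or 3 or any 1 of the KO libraries (adjusted p up to 0.17). A pseudocount of 0.1 (adjusted p = 0.0909), scaling to the same sum (adjusted p = 0.0546) and the fit on NSC libraries alone (adjusted p = 0.188) ended it too. Of 11 further Fox-a, Nk2, Nk1, Nk3 and Nk6 family genes 2 were tested and neither was called at any stage.

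Genes near the 8 were examined next. Within 1 Mb, 66 other genes were tested, and none was called in mESCs. At day 7 Msx3, 463.4 kb from Nkx6-2, was higher in KO, and Vamp2, 701.7 kb from Ntn1, was lower (-0.49, adjusted p = 0.031). At day 9 Msx3 was higher, and Gas7 (-1.55, adjusted p = 1.05e-05), Insm1 (-1.17, adjusted p = 0.00091) and Chd3 (-0.72, adjusted p = 0.02) were lower, 3 of 66 against 4.11% of all genes called lower. In NSCs Insm1 (-1.11, adjusted p = 0.00221) and Dpysl4 (-0.65, adjusted p = 0.0375) were lower. Insm1 lost its day 9 call with a pseudocount of 0.1 (adjusted p = 0.175) and its NSC call when the NSC libraries alone were fitted (adjusted p = 0.0817). Scaling to the same sum and the fit on the 2 groups ended the calls of Vamp2 (adjusted p = 0.0689 and 0.0614) and Dpysl4 (adjusted p = 0.072 and 0.268), the latter also with a pseudocount of 0.1 (adjusted p = 0.0609). The call of Vamp2 held only without WT replicate 1, that of Chd3 only without KO replicate 2 and that of Dpysl4 only without WT replicate 1, among the fits that left out 1 library. No tested neighbour of Foxa1 (1 gene), Foxa2 (5), Nkx2-9 (4), Nkx6-1 (7) or Spon1 (9) was called at any stage, the 8 genes themselves not counted.

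**Figure D5:**
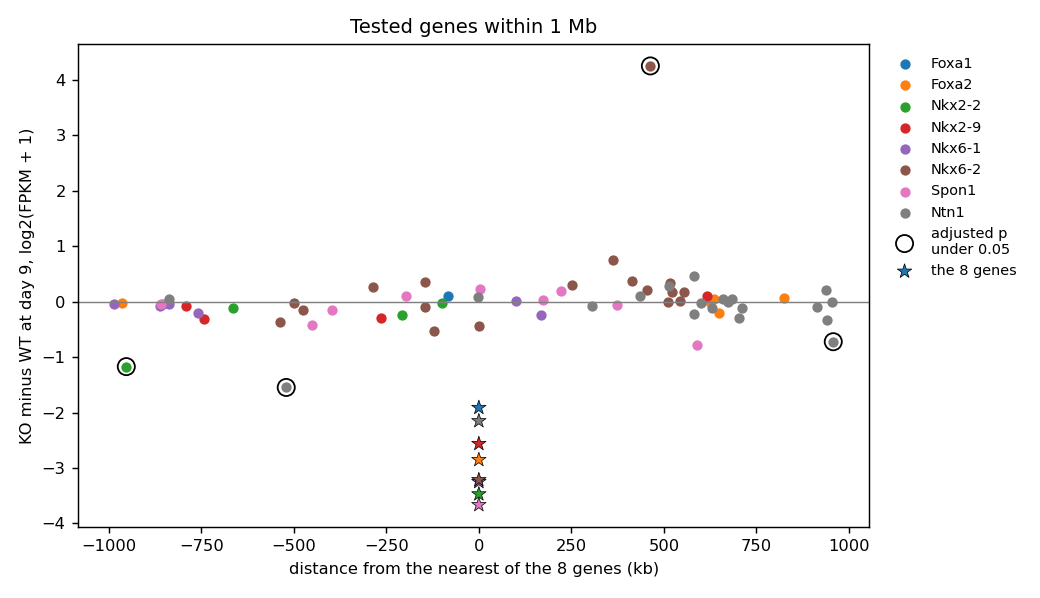
KO minus WT difference at day 9 of the 66 tested genes within 1 Mb of the 8 genes, by distance in kb and coloured by the nearest of them, with called genes ringed and the 8 genes as stars at 0. The 8 genes lie between -3.66 and -1.91, and 62 of the 66 neighbours were not called.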

How the data were processed

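Poly(A) RNA libraries were made by the authors with a stranded kit and sequenced as single-end reads. Per the labels and the methods, reads were trimmed with Trim Galore 0.6.6, aligned to mm9 with TopHat2 2.1.1, freed of ribosomal and X chromosome reads and quantified with Cuffdiff against the UCSC annotation, and the deposited values are FPKM per gene and library. The library normalization and strand-aware counting are not given in the sources used here, and read totals were not used. The table holds 36 FPKM columns, of which 12 belong to no sample analysed here and were not used. The comparison columns of the authors were not used either.

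Differences between groups were fitted by limma 3.58.1 in R 4.3.3 on log2(FPKM + 1). All 8 groups entered a model without an intercept. Contrasts between groups were moderated by eBayes (trend = TRUE, robust = TRUE, statmod 1.5.0), and tests were two-sided. The Benjamini-Hochberg adjustment was over 12105 genes with a mean of at least 1 FPKM, outside X and Y and without a failed estimate, and a call was an adjusted p under 0.05. Exact permutation tests of 3 against 3 libraries cannot go below 0.1 and were not used. The scripts were tested on simulated data. Differences of FPKM on this scale understate changes of low genes. Sums of FPKM ran from 504660 to 802938 per library.

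The 8 genes and the related lists were chosen with earlier results of these data known. Besides them, the text names Smchd1, the called genes of each list (the rule took the 3 with the largest change, and further ones were named after their values were seen), the 3 genes most like Foxa2, Nkx2-9 and Spon1, and called genes within 1 Mb. Some genes that this rule takes are not reported here. Same-numbered WT and KO libraries, numbered in the labels, deviated together in mESCs (correlations 0.289, 0.435 and 0.141) and NSCs (0.335, 0.184 and 0.24) while at day 7, at day 9 and between stages not every correlation was over 0.1, so the blocked counts stand beside the former. Alternatives were a pseudocount of 0.1, no filter on low values, scaling to the same sum of FPKM, fits on the 2 groups compared, the replicate block and leaving out each library.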

Additional observations from a re-analysis of the deposited data

Results flagged for a closer look

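Several genes lay on opposite sides in KO and WT cells at different stages, with every KO library above every WT library at one stage and below at another, by at least 0.5 on the log2(FPKM + 1) scale each time. The difference between stages was not tested for any of them. Foxa1 was higher in KO NSCs (1.26) and lower at day 7 (-2.03), a gap of 3.30, and Foxa2 was higher in KO NSCs (1.25) and lower at day 7 (-4.09), a gap of 5.34. In both cases the WT NSC libraries were listed at 0 and the KO NSC libraries held 5 to 28 reads. Spon1 was higher in KO at day 7 (0.62) and lower at day 9 (-3.66), a gap of 4.29.

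Among the related genes and neighbours the same was seen for Sulf2, a floor plate heparan sulfate enzyme, with a gap of 2.22 between NSCs and day 9. The netrin receptor gene Dcc had a gap of 2.09 between day 9 and NSCs (its NSC call was lost under most alternatives). Prdm8 had a gap of 1.52 between NSCs and day 9, with the call at each lost under several alternatives. Dpysl4 differed by 1.27 between day 7, where it was not called (adjusted p = 0.0645), and NSCs, where its call was lost under most alternatives. Chd3 differed by 1.19 between mESCs and day 7 and was called at neither (adjusted p = 0.193 and 0.132). No group of 4 or more libraries was present, so single libraries were not tested as outliers.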

How the results depend on the processing

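No called difference of the 8 genes or the other genes named changed sign under the alternatives run. Between KO and WT, the genes called were 64 in mESCs, against 164 without a filter, 42 scaled to the same sum of FPKM, 1 when only the 2 groups were fitted and 20 to 112 leaving out 1 library (over 1.5 times off without any but KO replicate 1). At day 7 leaving out 1 library gave 273 to 521 in place of 446, lowest without WT replicate 2 or 3 or KO replicate 3. At day 9 there were 809, against 1221 without a filter, 1377 with only the 2 groups and 449 to 752 leaving out 1 library, lowest without WT replicate 2 or 3 or KO replicate 1. In NSCs there were 729, against 58 with only the 2 groups and 406 to 1352 leaving out 1 library, highest without WT replicate 1 and lowest without KO replicate 2 or 3. Of the 8 genes, 2 were called in KO day 7 against mESCs and 5 with only the 2 groups fitted (7857 of all 12105 genes), where Nkx6-2 was called lower (-0.46, adjusted p = 0.0217). In KO day 9 there were 6, and 3 with only the 2 groups (8906 of all genes), and in KO NSCs against day 9 there were 7, with 4 in the 2-group fit (7752 of all genes) and 4 to 6 leaving out 1 library, fewest without KO NSC replicate 1.

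With the replicate block, 98 genes were called in mESCs and 1145 in NSCs, where same-numbered libraries deviated together. For KO day 7 against KO mESCs the numbers did not pair the libraries, and the block called 4 of the 8 genes, with Foxa2 (adjusted p = 0.0468) and Ntn1 (adjusted p = 0.048) added.

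Leave-one-out and 2-group fits hold fewer libraries, and the causes of the other changes were not tested. A pseudocount of 0.1 moved 11 of the KO against WT differences of the 8 genes by more than the spread between replicates, each with a library under 1 FPKM in a group compared. Depth limits Foxa1, Foxa2, Nkx2-9 and Shh in KO day 7 libraries, where values rest on 0 to 13 reads.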
